A study of Mus musculus with 8 samples.

Results

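Neuronal nuclei of the mouse brain were examined for Sst, Npy, Vip, Cck, Tac1, Penk, Pdyn and Crh, which encode neuropeptide precursors, Vgf, which encodes a secretory granule protein that is cut into peptides, and Bdnf, which encodes a neurotrophin. They were chosen by name as 10 of the 32285 genes in the UMI table, and all 10 were found there. Levels were read in the 45141 nuclei that the authors annotated as neurons, out of 61949 nuclei, and set beside the 16808 nuclei of the other classes. The nuclei came from 6-month-old brain hemispheres without cerebellum and olfactory bulb, with 8 libraries of 4 genotypes and 2 libraries for each genotype. WT mice carried neither mutation. Cnp-/- mice carried a null mutation of Cnp, which encodes a myelin protein of oligodendrocytes. 5xFAD mice carried mutated human transgenes under neuronal Thy1 promoter elements, which cause amyloid deposition, and Cnp-/- 5xFAD mice carried both changes. All mice were labelled as strain C57BL6/J. Whether a library held 1 animal is not settled, since the reporting form of the study gives a pair of animals pooled per replicate for its single-cell work, while its methods state pooling only for another dataset and not for these libraries. The comparison asked whether peptide and neurotrophin transcripts in neurons differed with myelin dysfunction, amyloid or both.

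Neuropeptides are made as long precursors, cut in the regulated secretory pathway, stored in dense-core vesicles and released during sustained firing to act on G protein-coupled receptors. In the forebrain several of them mark classes of inhibitory interneurons, with Sst, Npy, Vip and Crh in cortical GABA neurons, while Tac1 and Pdyn mark striatal projection neurons with the Drd1 receptor and Penk those with Drd2. Cck is made by interneurons and also by many excitatory neurons. BDNF signals through the receptor TrkB, and its gene and Vgf are known to be induced by neuronal activity.

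Several of these genes are classical targets of the cyclic AMP response element, and their promoter windows are shown because they place that element on the genes described here. The windows are the RefSeq sequence of build GRCm38.p6 around the annotated start of each gene, 5′ to 3′ on the strand of the gene. Capitals mark the palindromic element TGACGTCA or, where it is not present, its core TGACG on either strand, which also lies within the full element and which reads CGTCA on the opposite strand. In Sst (chr16:23890795-23891094, minus strand) the full element began 48 bases before the RefSeq start. The GENCODE annotation, used for gene positions below, starts Sst further upstream, so that the element lies inside that gene span. The cores of Cck (chr9:121495645-121495944, minus strand) and Vip (chr10:5638968-5639267, plus strand) began 47 and 79 bases before the start.
Sst promoter: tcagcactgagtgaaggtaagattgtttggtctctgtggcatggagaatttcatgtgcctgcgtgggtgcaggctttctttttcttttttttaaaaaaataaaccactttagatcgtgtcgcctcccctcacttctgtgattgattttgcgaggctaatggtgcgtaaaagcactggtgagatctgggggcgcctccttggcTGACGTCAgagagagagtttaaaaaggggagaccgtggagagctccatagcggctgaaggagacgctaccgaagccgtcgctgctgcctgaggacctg
Cck promoter: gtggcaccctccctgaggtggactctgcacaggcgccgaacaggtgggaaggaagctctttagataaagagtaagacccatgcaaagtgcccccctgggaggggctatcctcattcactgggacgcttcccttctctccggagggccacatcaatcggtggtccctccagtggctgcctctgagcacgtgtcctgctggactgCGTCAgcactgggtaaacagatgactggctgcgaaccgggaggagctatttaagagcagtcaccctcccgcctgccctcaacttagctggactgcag
Vip promoter: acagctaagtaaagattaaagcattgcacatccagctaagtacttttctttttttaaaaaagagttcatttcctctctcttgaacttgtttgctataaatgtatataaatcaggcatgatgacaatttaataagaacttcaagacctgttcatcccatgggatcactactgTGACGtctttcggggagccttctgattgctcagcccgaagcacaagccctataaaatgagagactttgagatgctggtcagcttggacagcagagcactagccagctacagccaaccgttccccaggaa
Among all 32851 promoter windows of the table, 1.79% held the full element and 20.8% held the core, so a core by itself is a frequent match. Of the 10 genes, 7 matched an entry in the table (14 windows, of which 7 belonged to Bdnf), 1 held the full element and 5 held a core, the other two being Tac1 and Bdnf. Penk, Crh and Vgf had no entry. A match describes letters in a window and no binding was measured.

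Libraries held 4463 to 6838 neurons and 64172772 to 77113463 neuronal UMIs, with medians of 6474 to 11309 UMIs per neuron. A total of 454 barcodes occurred in more than 1 library. Values are UMI counts of the group scaled to the same total (CPM). They are 3′ counts, not scaled by gene length, so levels are compared between samples and not between genes. Rbfox3, Snap25 and Syt1, the neuronal markers, had UMIs in 92.4%, 98.0% and 98.9% of annotated neurons. The labels were checked by Cnp in mature oligodendrocytes, which was at 283 and 321 CPM in WT and 219 and 265 CPM in 5xFAD, against 23.1 and 23.2 CPM in Cnp-/- and 24.0 and 32.8 CPM in Cnp-/- 5xFAD. In neurons Cnp was low in every library and did not separate the genotypes, at 8.37 to 10.2 CPM in the genotypes with Cnp-/- and 9.99 to 12.9 CPM in the others.

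The libraries did not sample the same mixture of neurons. To describe it, neurons were sorted by the UMIs of marker genes other than the 10 (groups named by those markers). GABA nuclei with Lhx6, Nxph1 and Sox6 as their highest marker sum made up 6.34% to 10.6% of neurons per library. Glutamate nuclei with upper-layer markers, which held 42.8% of Bdnf and 46.7% of Cck UMIs, made up 16.0% of neurons in WT replicate 1, 16.6% in Cnp-/- replicate 2 and up to 33.2% in Cnp-/- 5xFAD replicate 2. Slc17a6 neurons made up 4.78% in WT replicate 2 and 0.205% to 2.01% in the others. GABA nuclei with Adarb2, Prox1 and Npas1 made up 26.3% of neurons in WT replicate 1 and 19.6% in Cnp-/- replicate 2, but 4.56% to 9.26% in the other 6 libraries. Of this group, 780 nuclei of WT replicate 1, 664 of Cnp-/- replicate 2 and at most 33 of any other library lay in the authors' cluster 7, which was high in Meis2 (4077 CPM) and Adarb2 (2409 CPM). Cluster 13 held 295 and 314 nuclei of the group in the same libraries and at most 20 in any other. Counting all its neurons, cluster 7 held 1164 nuclei of WT replicate 1, 1183 of Cnp-/- replicate 2 and at most 45 of any other library. Nuclei with striatal markers numbered 669 in 5xFAD replicate 2, 498 in Cnp-/- replicate 1, 251 in Cnp-/- 5xFAD replicate 1, 234 in WT replicate 1 and 82 in Cnp-/- replicate 2. WT replicate 2 held 7, 5xFAD replicate 1 held 3 and Cnp-/- 5xFAD replicate 2 held 0. Cluster 25 of the authors held 864 neurons, of which 717 were from WT replicate 2. Cluster 11 held 1819 neurons, of which 719 were from WT replicate 2 and 458 from WT replicate 1. Neurons with mixed or thin marker counts, 33.1% of the total, were left unassigned. With 2 libraries per genotype, a change in the mixture of neurons cannot be told apart from a change in RNA per neuron over all neurons, and the part of the mixture in the results was not tested beyond the values given here.

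All 10 genes had most of their UMIs in neurons, from 91.7% of Crh UMIs to 99.9% of Bdnf UMIs, where neurons held 92.6% of the UMIs of all genes together. Crh lay below that share and Npy, at 94.7%, close to it. Since the cell classes were found by clustering these same counts, the contrast with other classes is a description. Bdnf UMIs were found in 14.3% of neurons (95% Wilson interval 13.9% to 14.6%), Vgf in 7.53%, Cck in 6.95%, Tac1 in 5.07%, Penk in 4.12%, Sst in 2.90%, Vip in 2.82%, Npy in 2.08%, Pdyn in 1.28% and Crh in 0.301%. These shares rest on a median of 9105 UMIs per neuron, and on 1395 UMIs per nucleus in microglia and 3598 UMIs in endothelial cells. These 2 classes were taken as ones that should lack neuropeptides, which does not cover Bdnf. Wilson intervals and limits cover counting error only. Whether the authors' removal of ambient transcripts lowered counts outside neurons was not tested, so limits hold for the deposited counts. In microglia the shares ran from 0% (Cck and Bdnf, which a count of 0 limits to 0.121% of 2472 nuclei) to 0.283% (Npy), and in endothelial cells from 0.120% (Pdyn) to 1.38% (Npy). The endothelial share with Crh was 0.420%, above the neuronal share, so Crh in all neurons together cannot be told from background by its share. Snap25 had a UMI in 5.94% of endothelial nuclei and in 1.21% of microglia, and the part of neuronal transcripts in these shares was not tested.

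**Figure D1:**
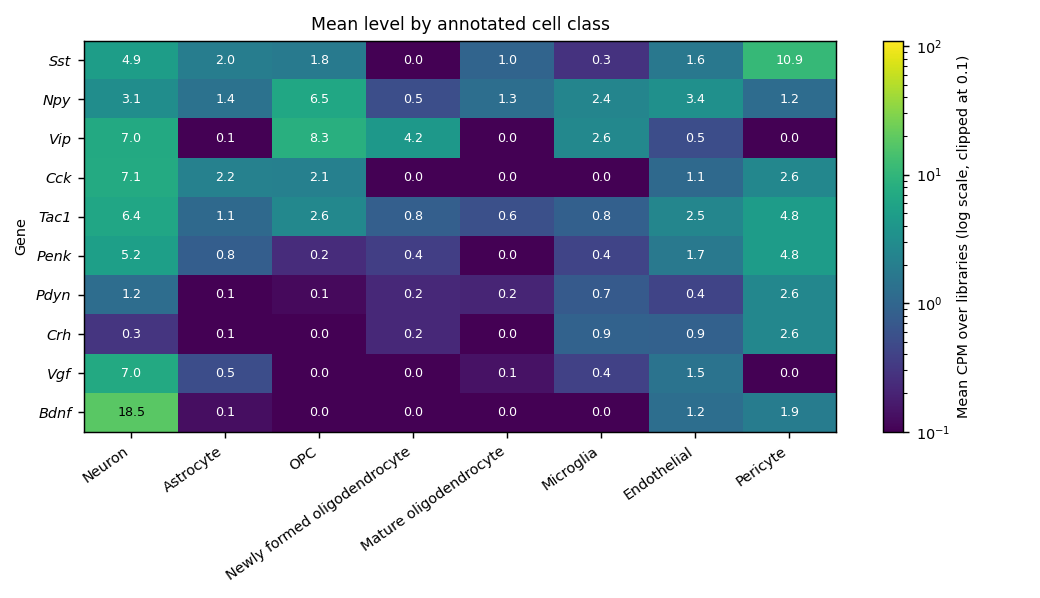
Heat map of the mean level of each gene (rows) in each annotated cell class (columns), as CPM averaged over 8 libraries on a log colour scale, with the value written in each cell (OPC, oligodendrocyte precursor). Bdnf was at 18.5 CPM in neurons and at 0 in oligodendrocyte precursors, newly formed and mature oligodendrocytes and microglia, and Sst in pericytes, at 10.9 CPM, rests on 2 UMIs.

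Bdnf had the largest share of its UMIs in neurons of the 10 genes. No Bdnf UMI was found in 1522 oligodendrocyte precursors, 465 newly formed oligodendrocytes, 5612 mature oligodendrocytes or 2472 microglia, which allows a share with a UMI of up to 0.197%, 0.645%, 0.0535% and 0.121% of these nuclei. These classes were shallower than neurons, at medians of 1515 UMIs in mature oligodendrocytes and 1395 UMIs in microglia. At a common depth of 3840 UMIs Bdnf was in 6.02% of neurons, in 0 of 142 mature oligodendrocytes (a share of up to 2.11%) and in 0 of 187 microglia (up to 1.60%). The peptide Vip, a vasodilator and a marker of disinhibitory interneurons, and Npy were seen in oligodendrocyte precursors at shares close to the neuronal ones. Vip had 39 UMIs in 38 of 1522 oligodendrocyte precursors (2.50%, Wilson interval 1.82% to 3.41%), with none in WT replicate 1 and 13 UMIs in Cnp-/- 5xFAD replicate 2. Shares at a common depth of 3840 UMIs, drawn from the 420 precursors and 40628 neurons that had as many (1102 and 4513 shallower nuclei were not used), were 2.14% of precursors and 1.64% of neurons. Npy had a UMI in 25 precursors (1.64%), of which 9 were from Cnp-/- replicate 2 and 10 from Cnp-/- 5xFAD replicate 1. Snap25, a neuronal marker, had a UMI in 20.5% of the precursors, and its part in these shares was not tested. Thinned shares for Npy were 0.945% of neurons, 0.906% of 773 endothelial nuclei, 0.714% of 420 precursors, 0.660% of 909 astrocytes and 0.311% of 322 newly formed oligodendrocytes. In microglia the thinned share was 1.07% of 187 nuclei and in mature oligodendrocytes 0.704% of 142. Both are less than 3 nuclei would give (1.60% and 2.11%). At equal depth the share of all neurons with an Npy UMI was thus close to that of endothelial nuclei. The microglial share rests on too few nuclei to place the neuronal share above or below it. Thinning left out 2285 of 2472 microglia and 894 of 1667 endothelial nuclei, so these shares cover only nuclei with at least 3840 UMIs. Before thinning Npy was in 2.08% of neurons, 1.38% of endothelial nuclei and 0.283% of microglia.

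Within neurons the transcripts were concentrated to different degrees. The 451 neurons (the top 1%) with most UMIs of a gene held 72.3% of Npy, 69.5% of Vip and 67.5% of Sst UMIs, against 22.8% (Bdnf) to 48.6% (Penk) of the UMIs of Bdnf, Vgf, Cck, Tac1 and Penk. These shares also follow the number of neurons with a UMI, which was lowest for Pdyn (577 neurons, 81.8% of UMIs in the top 1%) and Crh (136 neurons, 100%). Sst reached 42 UMIs and Vip 34 UMIs in a nucleus, and Vgf at most 6. Neurons with 10 or more UMIs numbered 54 for Vip, 30 for Sst, 22 for Bdnf, 18 for Npy, 4 each for Cck and Tac1, 2 for Penk and 0 for Pdyn, Crh and Vgf.

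**Figure D2:**
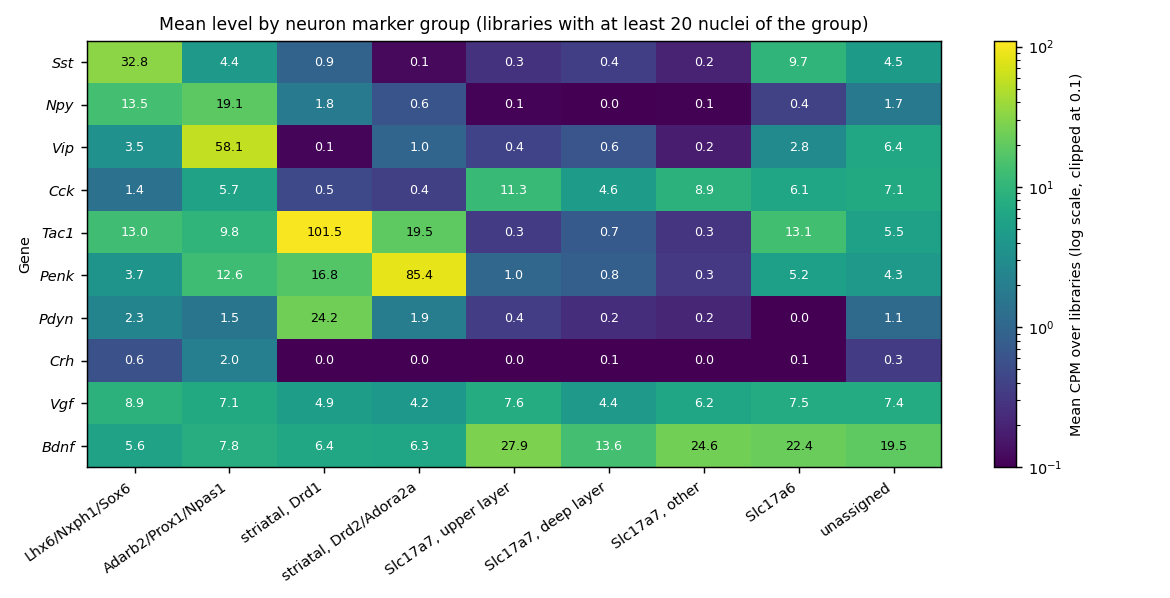
Heat map of the mean level of each gene (rows; CPM on a log colour scale, averaged over libraries with at least 20 nuclei) in neurons sorted by markers other than these genes (columns). Sst stood at 32.8 CPM in the Lhx6 group, Vip at 58.1 CPM in the Adarb2 group, Tac1 at 102 CPM in the striatal Drd1 group and Penk at 85.4 CPM in the striatal Drd2 group, while Vgf lay between 4.18 and 8.92 CPM in every group shown.

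Each of the interneuron peptides had its highest mean level in a group of GABA neurons. Sst, which encodes somatostatin (chr16:23889573-23890958, minus strand, coordinates from the GENCODE annotation of GRCm38), averaged 32.8 CPM in Lhx6, Nxph1 and Sox6 neurons against 4.41 CPM in Adarb2, Prox1 and Npas1 neurons and 0.28 CPM in glutamate neurons with upper-layer markers. The Lhx6 group held 61.0% of all neuronal Sst UMIs, and 18.5% of its nuclei had one. The next highest mean of Sst was in Slc17a6 neurons, at 9.73 CPM over 4 libraries (0 to 25.8 CPM). There 11.6% of nuclei had an Sst UMI, with 0% to 18.1% per library. WT replicate 2 held 265 of the 524 nuclei of this group. Vip (chr10:5639218-5647617, plus strand) averaged 58.1 CPM in the Adarb2 group, which held 65.5% of its UMIs, against 3.50 CPM in the Lhx6 group. Npy, which encodes neuropeptide Y (chr6:49822710-49829507, plus strand), was at 19.1 CPM in the Adarb2 group (1.16 to 57.3 CPM per library, median 11.2) and at 13.5 CPM in the Lhx6 group (2.37 to 27.1 CPM, median 11.0). Pooled over nuclei, and so not averaged over libraries, an Npy UMI was found in 6.51% of the Adarb2 group and 9.33% of the Lhx6 group. WT replicate 1 and Cnp-/- replicate 2, rich in cluster 7 (Npy at 0.438 CPM), gave 1607 and 1341 of the 5312 Adarb2 nuclei. Per library the shares ran from 0.933% to 26.2% in the Adarb2 group and from 2.72% to 17.3% in the Lhx6 group. Levels and shares per library overlapped, so Npy was not clearly higher in either group. Crh, the corticotropin-releasing hormone (chr3:19693401-19695396, minus strand), was at 2.03 CPM in the Adarb2 group and at most 0.57 CPM in any other assigned group.

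Neurons with a UMI of 1 peptide often had a UMI of another, which is given as a description, since deep nuclei have more of every UMI. Of 136 neurons with Crh, 78 (57.4%) also had Vip, against 2.82% of all neurons. Of 1311 neurons with Sst, 285 (21.7%) had Npy, against 2.08% of all neurons. Of 577 neurons with Pdyn, 194 (33.6%) had Tac1, against 5.07% of all neurons. Sst and Bdnf went the other way, with Bdnf in 8.01% of neurons with Sst and in 14.3% of all neurons. Cck and Bdnf shared neurons more often, with Bdnf in 30.9% of the 3139 neurons with Cck.

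Across 72 profiles (a neuron group in a library with at least 20 nuclei), the genes with the most similar pattern to each of these were also listed, by the Pearson correlation of log2(CPM + 10), which shares depth and library across points. For Vip they were Tac2 (r = 0.96), the tachykinin 2 precursor, and Htr3a (0.93), a serotonin receptor subunit. For Sst they were Pvalb (0.89), the calcium buffer of fast-spiking interneurons, and Wwox (0.85). Tac1 was most like Isl1 (0.91) and Drd3 (0.89), and Pdyn most like Isl1 (0.85) and Cartpt (0.80), a peptide precursor. Penk was most like Six3 (0.85) and Foxo1 (0.83), Npy most like Arl4c (0.84) and Gm47027 (0.81), and Crh most like Serpina12 (0.84) and Tac2 (0.80). The most similar genes were also found for Cck, with 1110008P14Rik (0.79) and Bhlhe22 (0.74), for Bdnf, with Gm34237 (0.80) and Ptprk (0.79), and for Vgf, with D8Ertd738e (0.71) and H2afz (0.71).

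Sst spread 14.2-fold between the lowest and the highest library, and the highest was WT replicate 2. In the order of replicates 1 and 2, Sst was at 3.10 and 18.4 CPM in WT neurons, 2.67 and 1.73 CPM in Cnp-/-, 5.24 and 3.93 CPM in 5xFAD and 1.30 and 2.56 CPM in Cnp-/- 5xFAD. All 4 libraries without Cnp lay below all 4 libraries with Cnp, and the WT libraries lay furthest apart. Two-sided edgeR quasi-likelihood tests over 21584 genes gave a log2 fold change for Cnp loss of -1.69 (SE 0.53, 95% interval -2.95 to -0.43) with an adjusted p of 0.52, which did not pass. Of all genes tested, 3.90% had groups that did not overlap in this comparison. Without WT replicate 2 the log2 fold change was -0.81. Within Lhx6, Nxph1 and Sox6 neurons, Sst was at 18.2 and 113 CPM in WT, 19.3 and 10.9 CPM in Cnp-/-, 36.8 and 27.0 CPM in 5xFAD and 11.4 and 26.1 CPM in Cnp-/- 5xFAD, so the groups overlapped there (2.93% of genes in that group did not), and the log2 fold change of -1.39 did not pass (edgeR adjusted p = 1.00). Without WT replicate 2 it was -0.47 in these neurons. The same peptide in 5xFAD carriers had a log2 fold change of -0.68 over all neurons (interval -1.92 to 0.55).

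**Figure D3:**
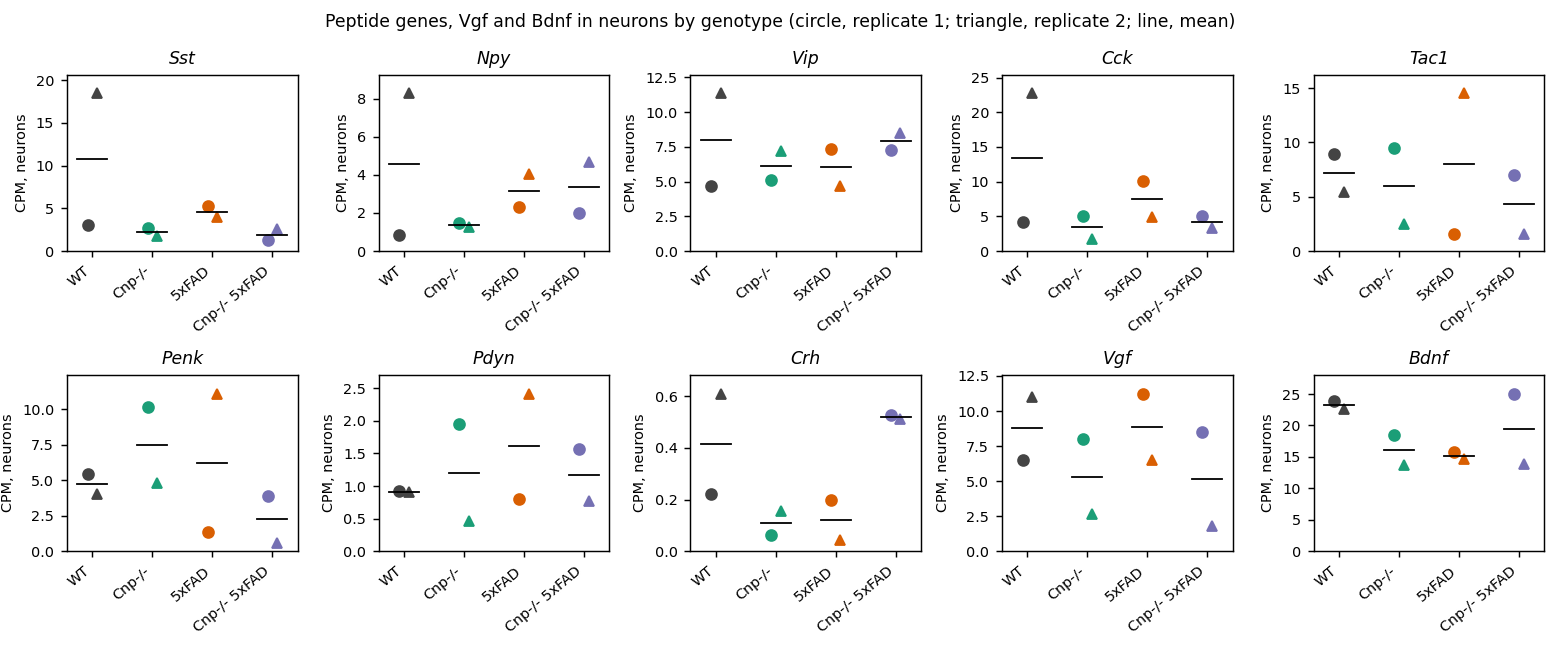
Level of each gene in neurons of each library (CPM on the vertical axis, 1 panel per gene, circles for replicate 1, triangles for replicate 2, lines for genotype means). WT replicate 2 lies above the other 7 libraries for Sst (18.4 CPM against 1.30 to 5.24 CPM) and Cck (22.7 CPM against 1.76 to 10.2 CPM), and Bdnf stays between 13.7 and 25.0 CPM.

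The share of neurons with an Sst UMI was 1.74% ± 0.58 (SD, n = 4 libraries) without Cnp and 4.27% ± 2.32 (SD, n = 4 libraries) with it, a difference with p = 0.0571 by a two-sided exact permutation test. Without WT replicate 2 the difference fell from 2.53 to 1.48 percentage points, and without WT replicate 1 the exact permutation p was 0.0286, the smallest that 35 relabellings can give. Each of 20 such comparisons (10 genes, for Cnp loss and for 5xFAD) has 70 relabellings and a smallest possible p of 0.0286, and none of them reached 0.05 before any adjustment. With neurons thinned to 3840 UMIs the Sst shares were 0.877% ± 0.274 and 2.13% ± 1.44 (SD, n = 4 libraries each, exact permutation p = 0.0857). The thinned Cck shares were 1.26% ± 0.37 without Cnp and 3.77% ± 3.29 with it (SD, n = 4 libraries each, exact permutation p = 0.0571, against p = 0.229 before thinning). Before thinning, the next lowest p after Sst was 0.114, for Vip in 5xFAD carriers, at 3.23% ± 0.68 against 2.49% ± 0.29 (SD, n = 4 libraries each, exact permutation test).

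Npy and Vip did not pass in any contrast. Npy was at 0.865 and 8.27 CPM in WT neurons, 1.49 and 1.25 CPM in Cnp-/-, 2.32 and 4.02 CPM in 5xFAD and 1.98 and 4.69 CPM in Cnp-/- 5xFAD, with the lowest and the highest level both in WT. Vip was at 4.69 and 11.3 CPM in WT, 5.10 and 7.17 CPM in Cnp-/-, 7.37 and 4.68 CPM in 5xFAD and 7.26 and 8.52 CPM in Cnp-/- 5xFAD, a spread of 2.43-fold. The log2 fold change of Vip was 0.07 for Cnp loss (interval -0.63 to 0.76). In Adarb2, Prox1 and Npas1 neurons Vip ran from 13.6 CPM in WT replicate 1 and 25.1 CPM in Cnp-/- replicate 2 to 96.6 CPM in WT replicate 2 and 107 CPM in Cnp-/- 5xFAD replicate 2. The first 2 libraries are those rich in cluster 7, where Vip was at 0.438 CPM, and the Vip log2 fold change for 5xFAD in this group was 0.68 (SE 0.57, edgeR adjusted p = 0.71). With 1 library left out this fold change lay between 0.26 and 1.64. Limited to nuclei of the group with more Adarb2 than Meis2, a choice made after seeing the data, Vip was at 30.6 and 56.9 CPM in those libraries and between 43.8 and 108 CPM in the others, and its log2 fold change for 5xFAD was 0.27. With no filter on low counts 3 of the 10 genes passed for 5xFAD in the whole group, Vip and Npy upward and Penk downward, as did 3.86% of all genes. Sst and Cck passed downward for Cnp loss there under the same setting (0.453% of genes), and Cck and Vgf in Slc17a7 neurons of no single layer group (1.77% of genes).

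Crh, the sparsest gene with 166 neuronal UMIs in 8 libraries, was at 0.223 and 0.609 CPM in WT, 0.0648 and 0.156 CPM in Cnp-/-, 0.197 and 0.0456 CPM in 5xFAD and 0.526 and 0.510 CPM in Cnp-/- 5xFAD. Both libraries of each single mutant lay below both WT libraries and both crossbred libraries, but on few UMIs (13 in 5xFAD replicate 1 against 16 in WT replicate 1). How many of all genes have this order was not counted, so it is no result about Crh. The interaction of Cnp loss with 5xFAD was 4.01 on the log2 scale (SE 1.06, interval 1.50 to 6.51), at an edgeR adjusted p of 0.90. None of 21584 genes passed for the interaction (0%), and 1066 had an unadjusted p under 0.05, so the value of Crh stands among many. Within the Adarb2 group Crh was at 0.365 and 3.45 CPM in WT, 0.370 and 0.483 CPM in Cnp-/-, 2.31 and 0 CPM in 5xFAD and 3.73 and 5.56 CPM in Cnp-/- 5xFAD.

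Cck, the cholecystokinin precursor (chr9:121489824-121495694, minus strand), was found in glutamate neurons and in Adarb2 GABA neurons, and was again highest in WT replicate 2. It averaged 11.3 CPM in neurons with upper-layer markers (Cux2, Rasgrf2 and Calb1), which held 46.7% of its UMIs, 8.91 CPM in other Slc17a7 neurons and 4.63 CPM in deep-layer neurons. Among GABA neurons it was at 1.38 CPM in the Lhx6 group and at 5.72 CPM in the Adarb2 group, where WT replicate 2 reached 24.7 CPM. Over all neurons Cck was at 4.14 and 22.7 CPM in WT, 5.06 and 1.76 CPM in Cnp-/-, 10.2 and 4.97 CPM in 5xFAD and 5.03 and 3.34 CPM in Cnp-/- 5xFAD. The groups with and without Cnp overlapped, and the log2 fold change for Cnp loss was -1.34 (SE 0.58, edgeR adjusted p = 0.61). Within upper-layer neurons it was at 7.45 and 33.7 CPM in WT, 9.24 and 3.56 CPM in Cnp-/-, 14.1 and 11.1 CPM in 5xFAD and 7.12 and 3.98 CPM in Cnp-/- 5xFAD, for a log2 fold change of -1.40 (interval -2.53 to -0.27, edgeR adjusted p = 0.87, with 0.0223% of genes in that group past the threshold). Without WT replicate 2 it was -0.51 over all neurons and -0.67 in upper-layer neurons.

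The striatal peptides were highest in 5xFAD replicate 2 and Cnp-/- replicate 1, the libraries with most striatal nuclei. Tac1 encodes the precursor of substance P (chr6:7554879-7565834, plus strand), Pdyn prodynorphin (chr2:129686565-129699844, minus strand) and Penk proenkephalin (chr4:4133531-4138819, minus strand). Tac1 averaged 102 CPM and Pdyn 24.2 CPM in striatal Drd1 neurons, and Penk 85.4 CPM in striatal Drd2 neurons, where 54.7% of nuclei had a Penk UMI. The striatal groups held 33.3% of Tac1, 30.2% of Penk and 32.3% of Pdyn UMIs but few neurons, at most 13.0% in any library. Penk was also at 30.5 CPM in cluster 7, the Meis2 and Adarb2 neurons of WT replicate 1 and Cnp-/- replicate 2.

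Over all neurons Tac1 was at 8.91 and 5.40 CPM in WT, 9.48 and 2.46 CPM in Cnp-/-, 1.59 and 14.5 CPM in 5xFAD and 7.01 and 1.57 CPM in Cnp-/- 5xFAD. The lowest and the highest library of Tac1 came from genotypes with 5xFAD, and the replicates of 5xFAD alone spanned nearly that whole range. Penk was at 5.45 and 4.04 CPM in WT, 10.2 and 4.83 CPM in Cnp-/-, 1.38 and 11.1 CPM in 5xFAD and 3.92 and 0.590 CPM in Cnp-/- 5xFAD, the widest spread of the 10 genes (18.8-fold). Pdyn was at 0.921 and 0.907 CPM in WT, 1.95 and 0.467 CPM in Cnp-/-, 0.802 and 2.41 CPM in 5xFAD and 1.57 and 0.778 CPM in Cnp-/- 5xFAD. The 4 libraries with at least 100 striatal nuclei had Tac1 at 7.01 to 14.5 CPM, and the other 4 had 1.57 to 5.40 CPM. With the striatal groups taken out these ranges were 4.75 to 7.86 CPM and 1.57 to 5.40 CPM, which overlapped. The striatal groups include those with the highest mean level of Tac1 and of Penk, so a fall without them was fixed in advance. The cut of 100 nuclei lies in the gap between libraries with 82 and 234. The removal was not complete. Of the neurons of the authors' clusters 9 and 36, 28.0% and 44.8% were unassigned, the largest single group in each. In these clusters the striatal marker Rarb was at 1450 and 551 CPM and Tac1 at 80.3 and 242 CPM. Cluster 36 held 73 to 132 nuclei in each of the libraries rich in striatal nuclei and at most 2 in any other. What remains is therefore not a level of non-striatal neurons alone. Penk ranged from 3.92 to 11.1 CPM against 0.590 to 4.83 CPM, and without the striatal groups from 2.32 to 6.39 CPM against 0.590 to 4.61 CPM.

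**Figure D4:**
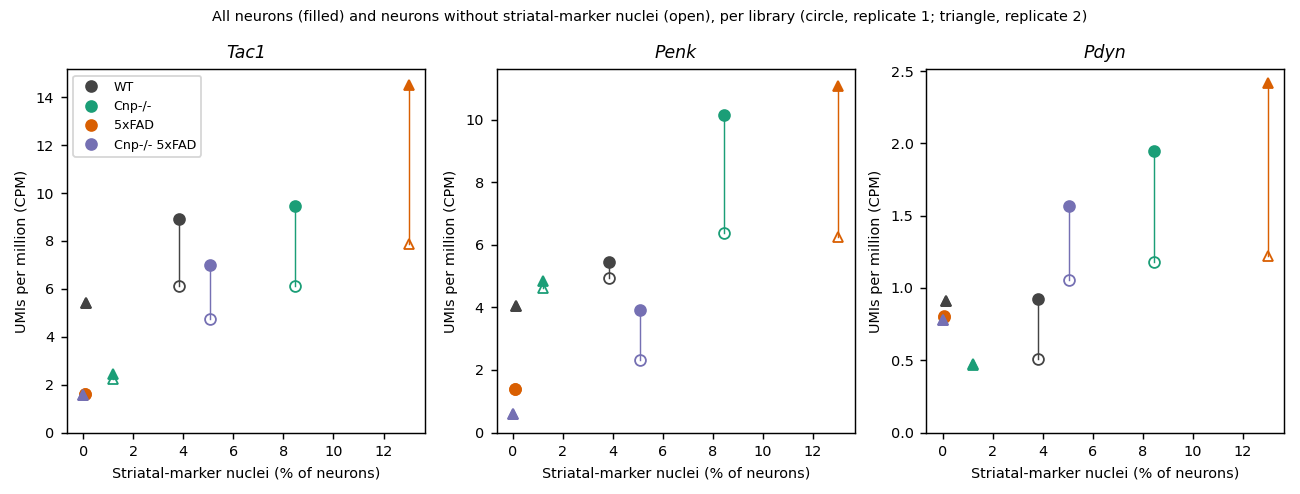
Levels of Tac1, Penk and Pdyn (CPM) in each library against the share of its neurons with striatal markers (percent), over all neurons (filled) and with those nuclei taken out (open), coloured by genotype with circles for replicate 1 and triangles for replicate 2. In the 4 libraries with at least 100 striatal nuclei Tac1 was at 7.01 to 14.5 CPM, and at 4.75 to 7.86 CPM with those nuclei taken out.

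Neither Tac1, Penk nor Pdyn passed a test over all neurons. Their log2 fold changes for Cnp loss were -0.51 (interval -2.31 to 1.29) for Tac1, -0.33 (interval -2.04 to 1.37) for Penk and 0.05 (interval -1.17 to 1.26) for Pdyn. Within striatal Drd2 neurons, which 5 libraries held in at least 20 nuclei, Penk was at 59.5 CPM in WT replicate 1, 93.5 and 62.4 CPM in Cnp-/-, 84.4 CPM in 5xFAD replicate 2 and 127 CPM in Cnp-/- 5xFAD replicate 1. Its log2 fold change there was 0.59 (SE 0.22) for Cnp loss and 0.52 (SE 0.22) for 5xFAD, at edgeR adjusted p values of 0.89 and 0.82. Cnp-/- alone had 2 libraries there, so the spread between replicates comes from that genotype and the lone libraries of the other 3 are assumed to vary like it. In that group 18 of 10143 genes (0.177%) passed for Cnp loss and 28 (0.276%) for 5xFAD. Striatal Drd1 neurons reached 20 nuclei in 1 library of each genotype, where Tac1 was at 94.0 CPM in WT, 80.1 CPM in Cnp-/-, 83.8 CPM in 5xFAD and 148 CPM in Cnp-/- 5xFAD and Pdyn at 18.3, 27.9, 20.1 and 30.3 CPM in the same order. With 1 library for each genotype these values have no replicate check.

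Vgf was detected at similar levels in GABA and glutamate neurons. Vgf (chr5:137026392-137033351, plus strand) was between 4.18 CPM in striatal Drd2 neurons and 8.92 CPM in the Lhx6 group. Over all neurons it was at 6.52 and 11.0 CPM in WT, 7.99 and 2.63 CPM in Cnp-/-, 11.2 and 6.55 CPM in 5xFAD and 8.53 and 1.81 CPM in Cnp-/- 5xFAD, with the 2 lowest levels both in replicates without Cnp. The log2 fold change for Cnp loss was -0.69 (interval -1.95 to 0.58) and for 5xFAD 0.01 (interval -1.26 to 1.27), and the groups overlapped in both. Leaving out 1 library moved the first to between -1.44 (without Cnp-/- 5xFAD replicate 1) and -0.34 (without Cnp-/- 5xFAD replicate 2).

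Bdnf (chr2:109674700-109727007, plus strand, 11 annotated transcripts) had the narrowest spread of the 10 genes between libraries, 1.82-fold, with a coefficient of variation of 25.6%. It was at 23.9 and 22.7 CPM in WT neurons, 18.5 and 13.7 CPM in Cnp-/-, 15.7 and 14.6 CPM in 5xFAD and 25.0 and 13.8 CPM in Cnp-/- 5xFAD. Both WT libraries were above both libraries of each single mutant, and the crossbred libraries spanned nearly the whole range. How many of all genes have this order was not counted, so it is no result about Bdnf. Bdnf averaged 27.9 CPM in upper-layer neurons, 24.6 CPM in other Slc17a7 neurons and 13.6 CPM in deep-layer neurons, against 5.59 CPM in the Lhx6 group. The intervals of its log2 fold change were the tightest of the 10, at -0.47 to 0.42 for Cnp loss (estimate -0.02) and -0.60 to 0.29 for 5xFAD (estimate -0.16). The interaction was 0.89 (interval 0.00 to 1.78, edgeR adjusted p = 1.00), and 0.43 without Cnp-/- 5xFAD replicate 1. In upper-layer neurons Bdnf was at 42.1 and 32.4 CPM in WT, 30.3 and 20.5 CPM in Cnp-/-, 21.1 and 24.6 CPM in 5xFAD and 34.2 and 18.0 CPM in Cnp-/- 5xFAD, and its log2 fold change was -0.15 for Cnp loss and -0.37 for 5xFAD, with neither passing (edgeR adjusted p of 0.972 and 0.815).

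Over all neurons none of the 10 genes passed the threshold in any of the 4 contrasts by edgeR's quasi-likelihood test. For Cnp loss 4 of 21584 genes passed (0.0185%, with 1756 at an unadjusted p under 0.05), for 5xFAD 0 (0%, with 2542), for the interaction 0 (0%, with 1066) and for Cnp-/- 5xFAD against WT 3 (0.0139%, with 3166). Of the 10 genes, 7 had a negative log2 fold change for Cnp loss, with a median of -0.42 against 0.00 over all genes tested. The medians were -0.08 for 5xFAD (5 of 10 negative), 0.84 for the interaction (4 of 10 negative) and -0.51 for Cnp-/- 5xFAD against WT (7 of 10 negative). Groups of libraries did not overlap for 1 of the 10 genes (Sst) in Cnp loss and for 0 of 10 in 5xFAD, beside 3.90% and 5.53% of all genes. These contrasts share libraries. By DESeq2, Sst passed for Cnp loss (adjusted p = 0.0307), where 0.839% of genes did, and for Cnp-/- 5xFAD against WT (adjusted p = 0.0109), where 4.15% did. It called none of the 10 for 5xFAD (2.34% of genes) or for the interaction (0.269%). The edgeR log2 fold change of Sst in the crossbred against WT was -2.37 (SE 0.77, edgeR adjusted p = 0.24), and -0.61 without WT replicate 2.

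**Figure D5:**
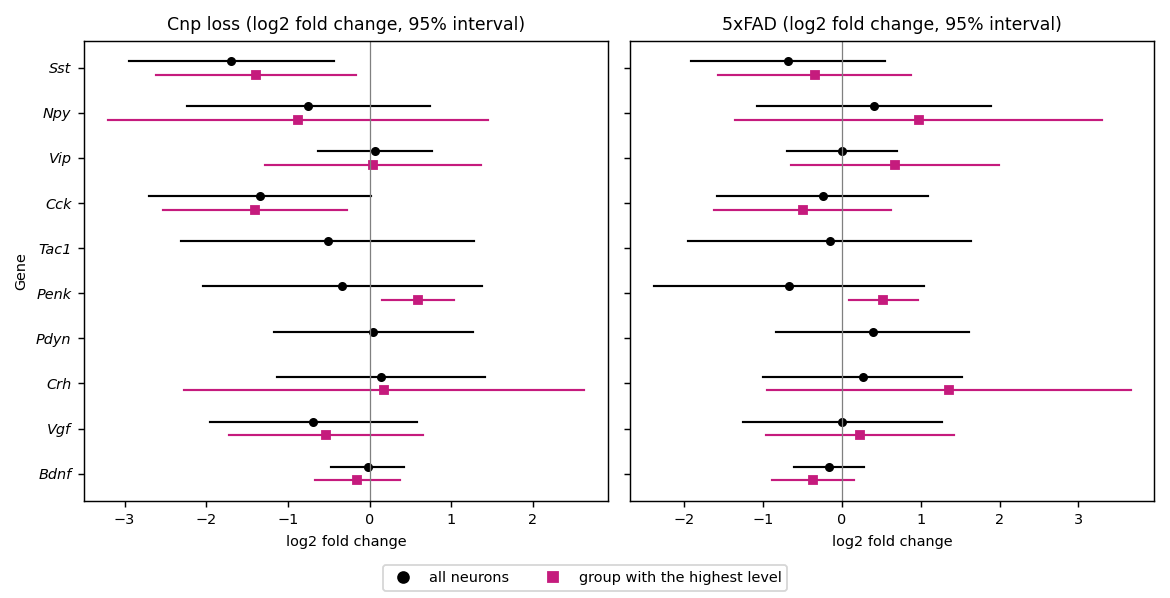
Log2 fold changes with 95% intervals (edgeR) for Cnp loss and for 5xFAD, over all neurons (black circles) and in the marker group with the highest level of each gene (magenta squares, none for Tac1 and Pdyn). Over all neurons the interval of Sst for Cnp loss (-2.95 to -0.43) lies below 0, the other intervals include 0, and those of Bdnf are the tightest (-0.47 to 0.42 for Cnp loss).

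Other genes of the same pathways were read from lists, and no gene of any list passed in any contrast. Of 32 other peptide precursors, 24 were tested, and 19 of them had a negative log2 fold change for Cnp loss, with a median of -0.31. Their summed level differed little between libraries, from 50.0 to 64.2 CPM. Of 15 granins and processing enzymes, which package and cut the precursors, 15 were tested, with a median of -0.03 for Cnp loss and -0.02 for 5xFAD. Of 22 peptide receptors 20 were tested, with medians of -0.07 and 0.09, and of 11 neurotrophins and their receptors 11 were tested, with medians of 0.04 and 0.03. Of 16 activity-induced genes 16 were tested, 14 positive for Cnp loss with a median of 0.22, and 11 negative for the interaction with a median of -1.27. Markers of glia were also counted in the neuronal nuclei, and none passed in any contrast. The summed level of 5 astrocyte markers was 77.0 to 97.2 CPM in WT, 41.9 to 97.5 CPM in Cnp-/-, 33.4 to 53.7 CPM in 5xFAD and 26.7 to 43.5 CPM in Cnp-/- 5xFAD, with none of the 5 at 0 and all 5 negative for 5xFAD. That of 7 oligodendrocyte markers was 202 to 354, 264 to 280, 173 to 182 and 183 to 227 CPM in the same order, and that of 5 microglia markers 68.8 to 79.5 CPM over all libraries. The part of these transcripts in the levels of the 10 genes was not tested.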

How the data were processed

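The authors prepared 3′ single-nucleus libraries of frozen brain hemispheres with the 10x Genomics kit, aligned them with Cell Ranger 6.1.2 to mm10, removed ambient transcripts with CellBender, filtered nuclei and clustered them with Seurat. Whether intronic reads were counted and how doublets were treated are not given in the sources used here, and no doublet caller was run. The authors deposited raw UMI counts per gene and nucleus with a table of library, cluster and cell type, and only that annotation was used. The 8 libraries were mapped to genotypes by their titles.

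UMI counts were summed per library over annotated neurons, or over groups of neurons cut by marker UMIs (a sum of at least 2), and expressed as counts scaled to equal totals (CPM). Contrasts were tested two-sided in 1 model of 4 genotype means by edgeR 4.0.16 (filterByExpr, TMM, quasi-likelihood F test, Benjamini-Hochberg threshold of 0.05, R 4.3.3), with SE as the log2 fold change over the root of F. Cnp loss is the mean of both genotypes without Cnp minus the mean of both with it, and 5xFAD likewise. DESeq2 1.42.0 was an alternative. The fits were tested on simulated data with known changes. The library is the replicate, and p-values measure the spread between these libraries. Replicates of a genotype differed beyond sampling noise (54.0% to 56.9% of genes at p under 0.05). All 10 genes were tested over all neurons in each contrast and their levels are given by genotype, but fold changes are printed for a selection of them. For the interaction these are Crh and Bdnf, and for Cnp-/- 5xFAD against WT only Sst. Other genes of a list are named only where they passed, and 2 genes per member by likeness of pattern. Other observations name further genes of the lists that did not pass, chosen after their values were seen. The genes, lists and groups were chosen with earlier results of these data known. Gene positions are from GENCODE M21 and promoters from RefSeq.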

Additional observations from a re-analysis of the deposited data

Results flagged for a closer look

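In 4 of 27 sets of 8 library values (each gene over all neurons and in its marker group, and each share), WT replicate 2 lay further from the other libraries than a gap test allows, a distance that chance gives in about 1 of 20 sets. Sst stood at 18.4 CPM over all neurons in WT replicate 2, with the other 7 libraries at 1.30 to 5.24 CPM. Cck stood at 22.7 CPM, with the others at 1.76 to 10.2 CPM. In Lhx6, Nxph1 and Sox6 neurons Sst was at 113 CPM, with the others at 10.9 to 36.8 CPM, and in upper-layer neurons Cck was at 33.7 CPM, with the others at 3.56 to 14.1 CPM. The sets mix 4 genotypes and share libraries, so they are not independent. The same library held 717 of the 864 neurons of the authors' cluster 25, where Sst was at 6.43 CPM and Cck at 4.57 CPM, both below the level of the library as a whole. It also held 719 of the 1819 neurons of cluster 11. There Sst was at 21.2 CPM over all libraries, above the level of WT replicate 2 as a whole, and Cck at 0.480 CPM. The part of these clusters in the levels of the library was not tested.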

How the results depend on the processing

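No member passed for any contrast over all neurons under DESeq2 size factors, no filter, the replicate block or any library left out. The same held for nuclei of at least 1000 UMIs, removal of nuclei with both marker pairs and equal composition. Of 45141 neurons, 45124 had at least 1000 UMIs, so that setting is hardly a check on depth. Equal composition drew 3623 neurons per library, of which 1358 were unassigned and 0 were from the striatal groups. It did not balance the authors' clusters within a group. DESeq2's own test called 1 member for Cnp loss and 1 for Cnp-/- 5xFAD against WT, Sst in both. With no filter, 2 members passed for 5xFAD in the marker group of their highest level (Npy and Vip, edgeR adjusted p of 0.0325 and 0.0159, where 3.86% of 26023 genes passed), and the cause was not tested. In other groups Penk passed for 5xFAD in Adarb2 neurons (0.00200), Sst and Cck for Cnp loss in the same neurons (0.0310 and 2.46e-04) and Cck and Vgf for Cnp loss in other Slc17a7 neurons (4.42e-07 and 0.00405). Among the 20 share comparisons, leaving out 1 library gave 0 to 2 with p under 0.05 (Sst for Cnp loss without WT replicate 1, and for 5xFAD Npy without WT replicate 2 and Vip and Penk without 5xFAD replicate 2). Over all neurons the genes called for Cnp loss (4) were 181 by DESeq2 and 1 without both libraries rich in cluster 7, those for 5xFAD (0) 506 by DESeq2, those for the interaction (0) 58, and those for the crossbred against WT (3) 896 by DESeq2, 1 with the replicate block and 57 without both libraries, with 2 to 5, 0 to 4, 0 to 1 and 0 to 23 when 1 library was left out.

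The signs of small log2 fold changes were not stable. Without both libraries rich in cluster 7 (added after seeing the data), Cnp loss gave Vip -0.30, Tac1 0.037, Penk 0.016, Crh -0.48 and Bdnf 0.11, and 5xFAD gave Npy -0.086, Vip -0.11 and Vgf -0.45. With the replicate block Pdyn was at -0.079 for Cnp loss, and Tac1 at 0.0038 and Vgf at -0.15 for 5xFAD. Equal composition gave Crh -0.15 for Cnp loss, no filter Vip -0.0085 and Vgf -0.0056 for 5xFAD, removal of nuclei with both marker pairs Vip -0.073 for 5xFAD, and marker sums of at least 4 Vip -0.0010 for Cnp loss in its group. With 1 library left out, the ranges for Cnp loss were Npy -1.18 to 0.43, Vip -0.18 to 0.44, Tac1 -1.24 to 0.64, Penk -1.30 to 0.73, Pdyn -0.66 to 0.53, Crh -0.21 to 0.83 and Bdnf -0.27 to 0.15. For 5xFAD they were Sst -1.07 to 0.20, Npy -0.020 to 1.59, Vip -0.24 to 0.38, Cck -0.62 to 0.59, Tac1 -1.30 to 0.49, Pdyn -0.093 to 1.08, Crh -0.44 to 0.70, Vgf -0.74 to 0.52 and Bdnf -0.40 to 0.017. In the marker groups they were Npy -1.64 to 1.39, Vip -0.37 to 1.01, Crh -0.40 to 3.18, Vgf -1.28 to 0.039 and Bdnf -0.42 to 0.051 for Cnp loss, and Sst -0.74 to 0.58, Cck -0.84 to 0.24, Crh -1.67 to 2.40 and Vgf -0.35 to 0.97 for 5xFAD. Sst for Cnp loss stayed between -2.08 and -0.81 over all neurons and between -1.79 and -0.47 in its group, and for the crossbred against WT between -3.14 and -0.61. The Bdnf interaction stayed between 0.43 and 1.26 and that of Crh between 3.14 and 5.43. For 5xFAD in the Adarb2 group, Npy stayed between 0.21 and 3.23 and Vip between 0.26 and 1.64.

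Replicate numbers did not pair the samples, since deviations of same-numbered libraries correlated at -0.26 to 0.28 between genotypes, and the block called 3, 0, 0 and 1 genes in the 4 contrasts and 0 members. In striatal Drd2 neurons the block and libraries left out were not run, since the block or a missing Cnp-/- library would leave no residual degrees of freedom and any other missing library would remove a genotype of the contrast. Depth limits Crh, which rests on 166 UMIs over 8 libraries.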

Other observations

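Among the activity-induced genes, chosen for mention after their values were seen, the interaction of Cnp loss with 5xFAD in neurons was -3.23 on the log2 scale for Egr1 (SE 0.46, edgeR adjusted p = 0.50), -1.64 for Junb (SE 0.19, edgeR adjusted p = 0.21) and 0.85 for Homer1 (SE 0.22, edgeR adjusted p = 0.90). Their list as a whole was at 386 to 567 summed CPM per library. Of the other peptide precursors and receptors, also chosen after their values were seen, Pomc was at -2.93 (SE 0.92) and Avp at 1.42 (SE 0.46) for Cnp loss (edgeR adjusted p of 0.524 and 0.528), and Ntrk2, the BDNF receptor TrkB, at 0.29 (SE 0.08, edgeR adjusted p = 0.51). None of these passed.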
